A study of Mus musculus with 18 samples.

Results

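The genes described here are 9 transcription factors that divide the ventral and intermediate neural tube into progenitor domains: Pax6, Olig2, Nkx2-2, Nkx2-9, Nkx6-1, Nkx6-2, Dbx1, Dbx2 and Irx3. They were chosen by name and are 9 of the 53465 genes in the deposited table. All 9 were counted in every library and all 9 passed the filter on low counts in every comparison.

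RNA sequencing was done on mouse embryos at embryonic day 9 with 20 to 24 somites. The labels give 5 control embryos and 4 embryos labelled DKO, in which Meis1 and Meis2, 2 genes for homeodomain proteins of the TALE class, were conditionally deleted with Delta1Cre, a Cre recombinase driven by the Delta1 (Dll1) gene. Each embryo gave 2 libraries: a posterior one from the axial bud with its newest 10 to 12 somites, and an anterior one from the remaining somite-bearing axis without the head. Each region thus has a control group of 5 libraries and a DKO group of 4. The genotype of the controls beyond that word, the strain, the litters and the tissues in which Cre had acted are not given in the sources used here. Each piece held all the tissues of the trunk, so for the neural tube genes the libraries are bulk samples in which fewer cells of a type and less RNA per cell cannot be told apart.

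The early neural tube is patterned along its dorsoventral axis by Sonic hedgehog from the notochord and floor plate. Progenitors close to that source express hedgehog-induced factors (Nkx2-2, Nkx2-9, Olig2, Nkx6-1 and Nkx6-2), those farther away keep factors that hedgehog represses (Pax6, Irx3, Dbx1 and Dbx2), and pairs of these factors repress each other at domain borders. Retinoic acid from the somites promotes the onset of several of them, while fibroblast growth factors from the tail bud hold the caudal progenitors back from neural patterning.

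In the GRCm38 build with GENCODE M21 the 9 genes are all protein-coding and lie at 9 separate places. Pax6 (ENSMUSG00000027168) lies on chromosome 2 from 105668900 to 105697364 on the plus strand, and Nkx2-2 (ENSMUSG00000027434) on chromosome 2 from 147177546 to 147194243 on the minus strand. Olig2 (ENSMUSG00000039830) lies on chromosome 16 from 91225457 to 91228677 on the plus strand. Nkx2-9 (ENSMUSG00000058669) lies on chromosome 12 from 56611389 to 56613284 on the minus strand, and Nkx6-1 (ENSMUSG00000035187) on chromosome 5 from 101658139 to 101664996 on the minus strand. Both Nkx6-2 (ENSMUSG00000041309, from 139579376 to 139582797) and Dbx1 (ENSMUSG00000030507, from 49631499 to 49636849) are on the minus strand of chromosome 7. Dbx2 (ENSMUSG00000045608) lies on chromosome 15 from 95623563 to 95655960 and Irx3 (ENSMUSG00000031734) on chromosome 8 from 91798525 to 91802067, both on the minus strand.

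Since the 9 genes respond to shared signals, the 250 bases before each annotated RefSeq start were searched on both strands for letters of a few factors' motifs, and the promoters of 3 genes are printed because the results below turn on them. Olig2 had the lowest p in the anterior DKO comparison, Dbx1 the highest fold in the posterior one, and Nkx6-2 the greatest difference between regions. The sequences are from RefSeq (GRCm38.p6), 5′ to 3′ on the gene's strand, without bases that GENCODE annotates as exon. They are Olig2 at chr16:91225300-91225456 (plus strand), Dbx1 at chr7:49636850-49637085 (minus strand) and Nkx6-2 at chr7:139582798-139583047 (minus strand). The capitals in Dbx1 mark the Meis core motif TGACAG, read there from the opposite strand, 81 to 76 bases before the start.
Olig2: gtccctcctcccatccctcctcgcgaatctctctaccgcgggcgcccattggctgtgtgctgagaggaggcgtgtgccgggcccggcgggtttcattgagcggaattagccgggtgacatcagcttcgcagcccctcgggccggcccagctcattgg
Dbx1: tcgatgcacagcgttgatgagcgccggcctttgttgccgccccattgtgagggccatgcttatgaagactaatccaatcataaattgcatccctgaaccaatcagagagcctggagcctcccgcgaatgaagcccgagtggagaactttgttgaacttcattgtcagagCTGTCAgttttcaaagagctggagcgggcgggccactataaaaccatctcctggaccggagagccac
Nkx6-2: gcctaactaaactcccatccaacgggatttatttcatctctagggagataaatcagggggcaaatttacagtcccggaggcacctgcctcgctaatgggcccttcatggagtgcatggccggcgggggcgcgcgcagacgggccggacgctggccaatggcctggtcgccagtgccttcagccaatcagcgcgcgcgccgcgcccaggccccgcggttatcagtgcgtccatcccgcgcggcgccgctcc

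RefSeq gave 10 promoters for the 9 genes, 2 of them for Pax6. The Meis core TGACAG was found in 3 of the 10, the second Pax6 promoter, Dbx1 and Dbx2, and in 15.9% of all 32851 promoters of the same length. An E-box, CATCTG, was found in 2 of the 10, Nkx2-2 and Dbx2, against 14.4% of all promoters. The E-box of Dbx2 overlaps its Meis core. All 250 bases of the second Pax6 promoter, and of those of Dbx2, Nkx6-1 and Irx3, lie in exons that GENCODE annotates for the gene. The Pax6 and Dbx2 matches thus fall in exon sequence, and the Dbx1 match does not. No match was found for ACCACCC, the middle of the Gli motif (3.92% of all promoters), or for AGGTCA, the short core bound by retinoid receptors (14%). A match is a string of letters in a short window and no binding was measured.

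Library totals ranged from 12.7 M to 38.2 M expected counts (M stands for megacounts), so that 3 counts, taken as the floor, equal 0.0786 to 0.237 counts per megacount of the library (CPM). Floors cover counting error only. Transcripts of both deleted genes were still counted in DKO. Meis1 was at 113 to 135 CPM in anterior controls and 89.7 to 111 CPM in anterior DKO, and Meis2 at 177 to 203 CPM and 130 to 157 CPM. In the posterior pieces Meis1 was at 59.6 to 99.8 CPM and 46.7 to 71.9 CPM, and Meis2 at 117 to 162 CPM and 91.1 to 116 CPM. The DKO libraries lay below all controls of their region except for posterior Meis1, where the groups overlapped. The edgeR log2 fold change in the anterior piece was −0.30 for Meis1 (SE 0.0692, adjusted p = 0.123) and −0.41 for Meis2 (SE 0.0608, adjusted p = 0.0522). In the posterior piece it was −0.55 (SE 0.158, adjusted p = 0.336) and −0.52 (SE 0.0983, adjusted p = 0.196). Neither gene passed an adjusted p of 0.05 with edgeR in either region, and counts per gene cannot show a deleted exon. Control embryo 1 is labelled female, yet both of its libraries had Xist at or under 0.340 CPM and 4 Y-linked genes summing to 151 and 162 CPM, so results that change without it are given below. The caudal progenitor list, with T, Fgf8 and Tbx6 among its genes, summed to 22.1 to 31.6 CPM in anterior controls and 347 to 672 CPM in posterior controls, and the head markers Otx2, Six3 and En2 had at most 3 counts in every anterior library.

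The first question was where along the axis these factors were expressed. The 9 genes were all lower in the posterior piece than in the anterior one, in controls and in DKO alike, and 8 of them passed the edgeR test in each genotype, while DESeq2 called all 9 in both, where it called 13.6% of all genes lower in controls and 11.2% in DKO. The fall was steepest for Nkx6-2 and Dbx1, which stood 8.84 and 8.31 times lower in the posterior controls, and among the genes that passed it was shallowest for Irx3 and Olig2, at 1.40 and 1.52 times lower. Of all 15294 genes tested in controls, 13.3% were lower with edgeR (25.4% in either direction). In DKO 9.7% of 15777 genes were lower with edgeR (18.5% in either direction).

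Nkx6-2 and Nkx6-1 are paralogous repressors that keep more dorsal fates out of ventral progenitors. Anterior Nkx6-2 was at 8.77, 10.5, 6.53, 14.1 and 9.90 CPM in controls 1 to 5, and posterior Nkx6-2 at 1.03, 0.601, 1.06, 1.63 and 1.31 CPM in the same embryos. In DKO embryos 1 to 4 the anterior values were 14.8, 8.07, 15.2 and 15 CPM and the posterior ones 1.85, 1.43, 1.81 and 2.0 CPM. Every posterior library was far below every anterior one, and posterior values rested on 13.5 to 49.2 expected counts. The log2 fold change of posterior over anterior was −3.14 (SE 0.261, adjusted p = 2.62e-06) in controls and −2.91 (SE 0.224, adjusted p = 1.70e-05) in DKO.

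Nkx6-1 was the more abundant of the pair. It was at 47.0, 44.5, 42.0, 52.5 and 48.5 CPM in anterior controls, and at 21.2, 17.9, 24.8, 23.3 and 34.2 CPM in posterior controls. The anterior DKO libraries held 70.1, 53.7, 58.3 and 62.4 CPM and the posterior ones 31.0, 29.5, 23.2 and 27.0 CPM. The pieces did not overlap in either genotype, with a log2 difference of −0.96 (SE 0.139, adjusted p = 0.000249) in controls and −1.14 (SE 0.107, adjusted p = 5.58e-05) in DKO.

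Dbx1 and Dbx2 mark intermediate progenitors, from which interneurons arise. Anterior Dbx1 was at 35.2, 28.1, 33.6, 42.0 and 41.2 CPM in controls and 54.3, 49.7, 39.2 and 48.4 CPM in DKO. Posterior Dbx1 was at 5.35, 1.33, 6.80, 4.35 and 3.66 CPM in controls and 8.06, 13.1, 3.25 and 7.27 CPM in DKO. The posterior levels spread widely within a genotype, yet stayed below every anterior level. The regional log2 difference was −3.06 (SE 0.294, adjusted p = 8.79e-06) in controls and −2.57 (SE 0.312, adjusted p = 0.000275) in DKO. Dbx2, a weakly counted gene, was at 3.26 to 5.83 CPM in anterior controls (median 4.45 CPM) and 0.850 to 1.87 CPM in posterior controls (median 1.43 CPM), and fell by 1.66 on the log2 scale (SE 0.234, adjusted p = 0.000201). In DKO it was at 4.73 to 4.83 CPM and 1.55 to 2.27 CPM, and fell by 1.34 on that scale (SE 0.164, adjusted p = 0.000285).

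Pax6, which sets the dorsal limit of Nkx2-2, was at 92.2, 95, 73.1, 92.2 and 90.5 CPM in anterior controls and 106, 90.4, 112 and 105 CPM in anterior DKO. Its posterior levels were 32.9, 21.8, 38.5, 34.4 and 36.8 CPM in controls and 40.7, 45.1, 31.2 and 39.2 CPM in DKO. Again no posterior library reached an anterior one, and the log2 difference was −1.43 (SE 0.130, adjusted p = 5.67e-06) in controls and −1.40 (SE 0.109, adjusted p = 1.82e-05) in DKO. Nkx2-2, the determinant of the most ventral neuronal progenitors, was at 3.51, 4.84, 2.72, 4.08 and 3.75 CPM in anterior controls and 0.685, 0.687, 0.907, 0.952 and 1.11 CPM in posterior controls. In DKO it was at 6.28, 4.83, 5.13 and 5.87 CPM in the anterior and 0.870, 1.36, 0.427 and 1.69 CPM in the posterior pieces, where expected counts ran from 7.96 to 39. It fell by 2.14 on the log2 scale in controls (SE 0.213, adjusted p = 1.12e-05), and its log2 difference in DKO was −2.34 (SE 0.321, adjusted p = 0.000594).

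Olig2, which specifies motor neuron progenitors, differed less between the pieces. It was at 31.2, 36.8, 32.2, 34.1 and 36.0 CPM in anterior controls and at 21.7, 12.9, 25.5, 22.6 and 29.7 CPM in posterior controls. The DKO levels were 45.9, 45.3, 44.7 and 41.4 CPM in the anterior and 30.9, 34.8, 19.8 and 27.6 CPM in the posterior pieces. Within each genotype the posterior libraries lay below all anterior ones, with a log2 difference of −0.60 in controls (SE 0.166, adjusted p = 0.0176) and −0.64 in DKO (SE 0.142, adjusted p = 0.0101). The control call was lost without embryo 1 (adjusted p = 0.0581) and without embryo 4 (0.0705), and the DKO call without DKO embryo 1 (0.0582).

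Irx3, the partner of Olig2 in setting the dorsal edge of the motor neuron domain, was at 80.5, 80.4, 70.2, 90.2 and 75.6 CPM in anterior controls and 50.1, 45.4, 53.5, 64.2 and 70.0 CPM in posterior controls. Anterior DKO libraries were at 105, 88.9, 101 and 93.9 CPM and posterior ones at 66.6, 71.5, 58.4 and 70.8 CPM. The highest posterior control, embryo 5, came within 1 CPM of the lowest anterior control, but the groups did not overlap. Irx3 fell by 0.49 on the log2 scale in controls (SE 0.110, adjusted p = 0.00553) and by 0.54 in DKO (SE 0.0806, adjusted p = 0.00101).

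Nkx2-9 was the 1 gene of the 9 that missed the edgeR threshold. This relative of Nkx2-2, active early in the most ventral progenitors, was at 6.34, 12.4, 4.74, 7.75 and 7.12 CPM in anterior controls and 5.16, 5.79, 5.04, 5.44 and 5.03 CPM in posterior controls. In DKO it was at 9.68, 4.89, 10.5 and 12.1 CPM in the anterior and 6.43, 5.26, 5.76 and 5.83 CPM in the posterior pieces. The posterior libraries were nearly level while the anterior ones spread, and the groups overlapped. Its log2 difference was −0.55 in controls (SE 0.209, adjusted p = 0.0774) and −0.67 in DKO (SE 0.236, adjusted p = 0.0786). The control difference passed in 4 of 12 alternatives, with adjusted p-values from 0.0329 to 0.183 over the 12, and the DKO difference in 2 of 11, with values from 0.00525 to 0.247. With the embryo as a block in the fit the control difference passed, at −0.49 (adjusted p = 0.0329), and the DKO difference did not, at −0.61 (0.0559). Lower with the block were 17.5% of all genes in controls and 10.1% in DKO. The control difference was −0.33 (adjusted p = 0.182) without control embryo 2, and without control embryo 3 it passed (adjusted p = 0.0459). With somite number as a covariate it passed too (adjusted p = 0.0374). Without DKO embryo 2 the DKO difference passed as well (−0.83, adjusted p = 0.00525). DESeq2 on all libraries called it in controls (adjusted p = 0.0488) and in DKO (0.0314).

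**Figure D1:**
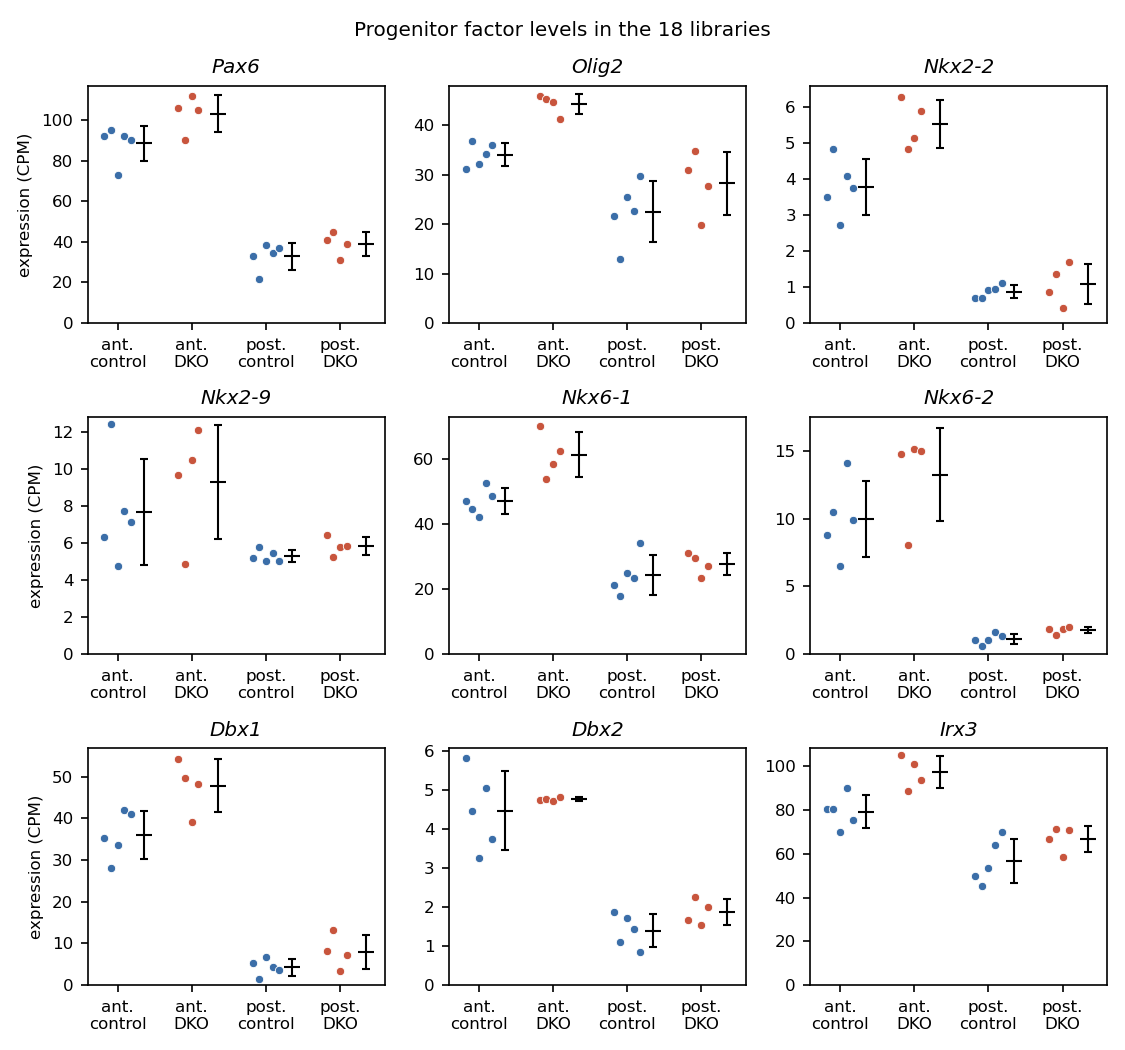
TMM-scaled expression in CPM (vertical axes, each starting at 0) of the 9 genes in the 18 libraries, one point per library by group, with the mean and SD at the right of each group. Posterior libraries lie below the anterior ones for 8 of the 9 genes in each genotype, and the posterior Nkx2-9 values of 5.03 to 6.43 CPM lie within the anterior range.

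**Figure D2:**
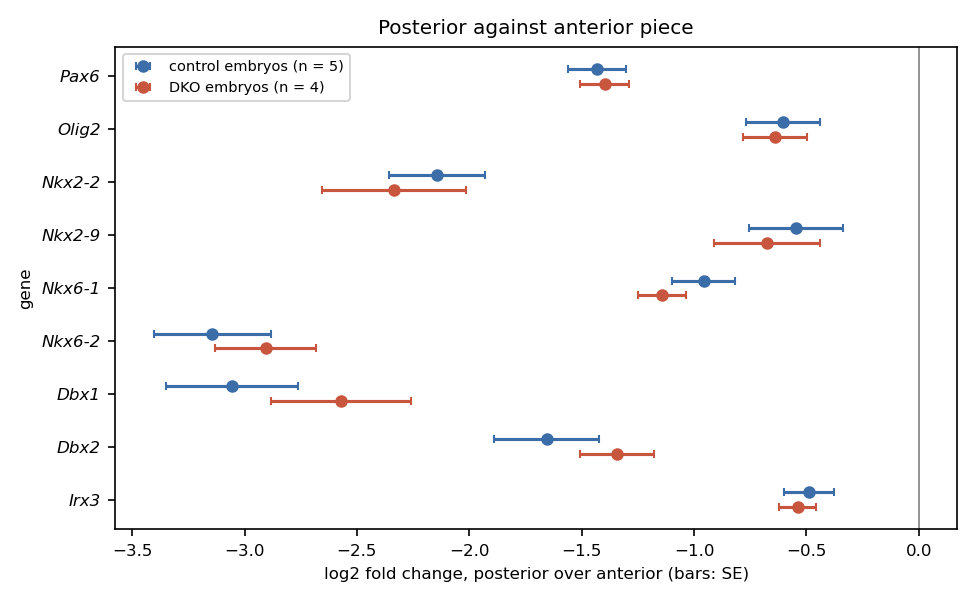
Log2 fold change of posterior over anterior (horizontal axis, bars are SE) for each gene in the 5 control and the 4 DKO embryos. Nkx6-2 and Dbx1 stand at −3.14 and −3.06 in controls, Irx3 and Olig2 at −0.49 and −0.60, and the control and DKO points of each gene lie close together.

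Counted without overlap between the pieces, 8 of the 9 genes were lower in the posterior controls, against 10.7% of all genes, and 8 of 9 in the posterior DKO, against 12.7%. The 9 genes had a median log2 difference of −1.43 in controls and −1.34 in DKO, with all genes at −0.01 and 0.01. Other neural lists were counted by the same edgeR test. All 8 genes of a pan-neural progenitor list, among them Sox1, Sox2 and Sox3, were lower in the posterior pieces of both genotypes, and the list summed to 868 to 1015 CPM in anterior and 417 to 499 CPM in posterior controls. The lists of single domains and neurons were mixed. In controls 8 of 13 dorsal progenitor genes passed on the lower side and 2 on the higher side, of 9 other ventral and intermediate progenitor genes 5 and 2, and of 23 neuron identity genes 11 and 7. Among those higher in the posterior controls was Sp8, at 20.2 ± 2.21 CPM in the anterior and 36.3 ± 6.57 CPM in the posterior piece (log2 difference 0.84, SE 0.127, adjusted p = 0.000326). All 10 caudal progenitor genes were higher in the posterior controls. Their part in the fall of the 9 factors was not tested in a model.

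The 9 factors were therefore also set against the summed CPM of Sox1, Sox2 and Sox3, which mark neural progenitors at all dorsoventral levels. On this scale the 9 genes divided. Dbx1 came to 12.8% of the Sox sum in anterior controls and 2.21% in posterior ones (geometric means), Nkx6-2 to 3.47% and 0.624%, Nkx2-2 to 1.33% and 0.498%, Dbx2 to 1.57% and 0.784%, and Pax6 to 31.7% and 18.9%. For these 5 genes every posterior control was below every anterior control, and 2.2% of all genes did the same relative to the Sox sum. The other 4 overlapped between the pieces. Nkx6-1 was at 16.8% and 13.9%, Olig2 at 12.2% and 12.7%, Nkx2-9 at 2.62% and 3.09%, and Irx3 at 28.4% and 32.7%. In DKO the same 5 genes and Nkx6-1 (18.4% and 13.3%) did not overlap and were lower in the posterior piece, 6 of 9 against 2.93% of all genes. These ratios are descriptions with no test.

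Compared between genes per kilobase of annotated exon, Irx3 had the highest level in anterior controls, 28.7 ± 2.68 CPM per kilobase (SD, n = 5). Dbx1 at 17.2 ± 2.75, Nkx6-1 at 14.9 ± 1.28 and Olig2 at 13.5 ± 0.939 followed, and their neighbouring ranges met within 1 SD. Pax6 came to 7.57 ± 0.752 over its long annotated exons, Nkx2-9 to 6.07 ± 2.28 and Nkx6-2 to 5.23 ± 1.46, another run of neighbours within their spread. Nkx2-2 at 1.31 ± 0.270 and Dbx2 at 1.29 ± 0.294 CPM per kilobase were the lowest and could not be ordered.

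The next question was whether these factors differed between DKO and control embryos in the anterior piece. No member passed the adjusted threshold with edgeR, where 6 of 15238 genes (0.0394%) did. DESeq2 called 4 of the 9, and 1.94% of all genes. The 9 fitted differences nevertheless all lay on the higher side in DKO, and 6 of the 9 had an unadjusted p below 0.05, which 6.41% of all genes had in that direction. The median log2 fold change of the 9 was 0.38, with all genes at 0.00 and 50% of genes above 0.

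Among the hedgehog-induced genes, Olig2 averaged 34.1 ± 2.38 CPM in anterior controls (SD, n = 5) and 44.3 ± 2.0 CPM in anterior DKO (n = 4). The lowest DKO library, at 41.4 CPM, stood above the highest control, at 36.8 CPM. Its log2 fold change was 0.38 (SE 0.0607) with an edgeR adjusted p of 0.0522, just outside the threshold. Other fits put it inside: DESeq2 (adjusted p = 0.000114), edgeR with no filter on low counts (0.0182) and edgeR with somite number as a covariate (0.0310). These called 1.94%, 0.274% and 0.551% of all genes. In the other 13 of 16 alternatives Olig2 did not pass, with adjusted p-values up to 0.515 when all libraries shared one fit.

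Nkx6-1 averaged 46.9 ± 4.01 CPM in anterior controls and 61.2 ± 6.96 CPM in anterior DKO. Here too the groups were apart, with 52.5 CPM in the highest control and 53.7 CPM in the lowest DKO library. The log2 fold change was 0.38 (SE 0.0821, adjusted p = 0.102), and it passed with DESeq2 (0.00306) and with no filter (0.0406), 2 of 16 alternatives. Olig2 and Nkx6-1 were the 2 of 9 genes whose anterior groups did not overlap, against 2.46% of all genes with DKO higher.

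For the other hedgehog-induced genes the spread was wider. Nkx2-2 averaged 3.78 ± 0.776 CPM in anterior controls and 5.53 ± 0.665 CPM in anterior DKO. This log2 difference of 0.54 was the largest of the 9 (SE 0.166, adjusted p = 0.220), and DKO embryo 2 overlapped control embryo 2. Nkx6-2 was at a mean of 9.97 ± 2.78 CPM and 13.3 ± 3.45 CPM (0.41, SE 0.224, adjusted p = 0.480), with 3 DKO libraries at 14.8 to 15.2 CPM and DKO embryo 2 at 8.07 CPM. Nkx2-9 had means of 7.68 ± 2.88 CPM and 9.29 ± 3.10 CPM (difference 0.26, SE 0.288, adjusted p = 0.749), and its groups overlapped over most of their range. It ran from 0.11 without DKO embryo 4 to 0.52 without control embryo 2.

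Of the genes that hedgehog represses, Dbx1 averaged 36.0 ± 5.76 CPM in anterior controls and 47.9 ± 6.33 CPM in DKO. Only DKO embryo 3, at 39.2 CPM, fell among the controls. The log2 fold change was 0.42 (SE 0.122, adjusted p = 0.205), and of 16 alternatives DESeq2 alone put it past the threshold (adjusted p = 0.0476). Irx3 had means of 79.4 ± 7.39 CPM and 97.3 ± 7.33 CPM (difference 0.29, SE 0.0718, adjusted p = 0.146), with DKO embryo 2 below the highest control, and passed with DESeq2 alone (0.0160). Pax6 had means of 88.6 ± 8.79 CPM and 103 ± 9.10 CPM (difference 0.22, SE 0.0807, adjusted p = 0.291). Dbx2, at 4.47 ± 1.02 CPM and 4.77 ± 0.0469 CPM, was nearly level (0.09, SE 0.164, adjusted p = 0.864).

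Posteriorly the fitted differences again all lay above 0, but with larger errors. None of the 9 passed with edgeR, where 2 of 15936 genes (0.0126%) did, and none with DESeq2, which called 161 genes (1.01%). Of the 9, 1 gene, Nkx6-2, had an unadjusted p below 0.05, against 5.27% of all genes. None had groups that did not overlap, against 2.16%. Their median log2 fold change was 0.33, with all genes at 0.01 and 52.4% of genes above 0.

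Posterior Dbx1 averaged 4.30 ± 2.04 CPM in controls and 7.93 ± 4.06 CPM in DKO, or 0.89 higher on the log2 scale (SE 0.424, adjusted p = 0.468). DKO embryo 2 at 13.1 CPM was the highest and DKO embryo 3 at 3.25 CPM lay below 4 of the 5 controls. The difference was 0.53 without DKO embryo 2 and 1.14 without DKO embryo 3. Posterior Nkx6-2 had means of 1.13 ± 0.380 CPM and 1.77 ± 0.242 CPM (difference 0.65, SE 0.279, adjusted p = 0.451), and its groups overlapped at 1 library on each side. The other 7 ranged from 0.14 for Nkx2-9 (SE 0.116, adjusted p = 0.635) to 0.40 for Dbx2 (SE 0.257, adjusted p = 0.538). Between these lay Nkx6-1 at 0.19, Irx3 at 0.24, Pax6 at 0.25, Olig2 at 0.33 and Nkx2-2 at 0.34, with adjusted p-values from 0.480 to 0.709. Several of these moved by more than 1.5 times when 1 embryo was left out. Nkx2-2 ran from 0.06 without DKO embryo 4 to 0.60 without DKO embryo 3. Without control embryo 2, the 20-somite control, Pax6 came to 0.13, Olig2 to 0.19 and Nkx6-1 to 0.10, while Nkx6-1 was at 0.34 without control embryo 5 and Nkx2-9 at 0.08 without DKO embryo 1.

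**Figure D3:**
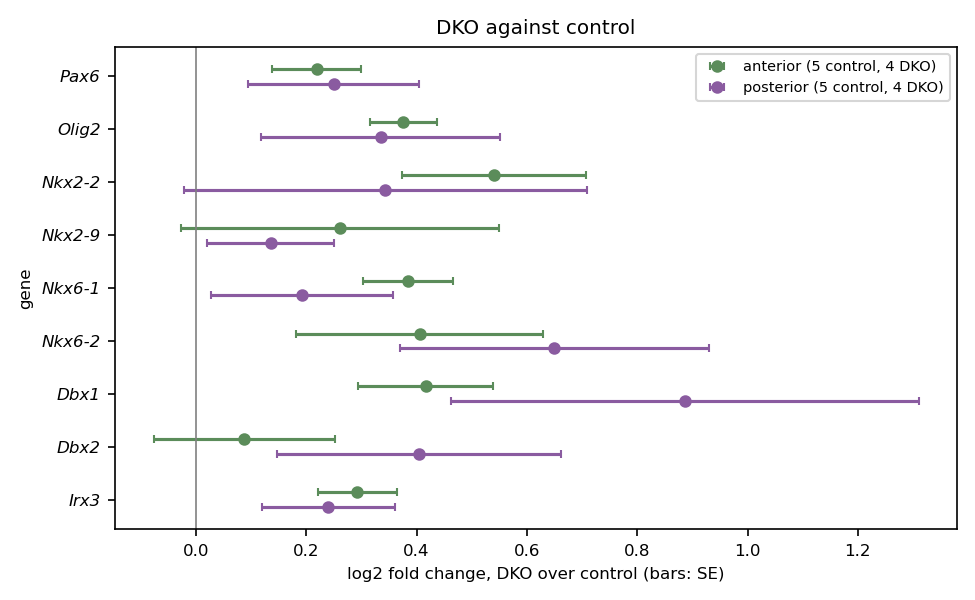
Log2 fold change of DKO over control (horizontal axis, bars are SE) for each gene in the anterior and the posterior pieces, 5 control and 4 DKO libraries each. All 18 points lie above 0, the bars of the anterior points for Olig2, Nkx6-1 and Irx3 are short, and the posterior Dbx1 point at 0.89 has the longest bar.

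Whether the effect of genotype differed between the regions was tested as an interaction over all 18 libraries. No member passed (adjusted p = 0.999 for each), and the differences of effects ran from −0.19 for Nkx2-2 (SE 0.385) and Nkx6-1 (SE 0.194) to 0.48 for Dbx1 (SE 0.455). The value for Dbx1 was 0.14 without DKO embryo 2 and 0.70 without control embryo 3, that for Nkx6-2 was 0.24 with all embryos and 0.06 at the lowest with 1 left out, and that for Nkx6-1 was −0.06 without control embryo 5. At an unadjusted p below 0.05 no member was found, where 334 of 16428 genes (2.03%) were higher and 233 (1.42%) lower. edgeR called 0% of all genes and DESeq2 called 10 genes, none of them a member.

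Control embryo 1, whose libraries went against their sex label, was also left out. The regional call of Olig2 in controls was then lost, as given above. The anterior log2 fold changes then ran from 0.20 for Nkx2-9 and Dbx2 to 0.51 for Nkx2-2, with Olig2 at 0.35 (adjusted p = 0.124) and Nkx6-1 at 0.39 (adjusted p = 0.188). The posterior ones ran from 0.12 for Nkx2-9 to 0.98 for Dbx1, and none passed in either region. Dbx2 was the member that moved most, from 0.09 to 0.20 in the anterior and from 0.40 to 0.54 in the posterior pieces.

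Other neural genes were measured beside the 9. In the pan-neural progenitor list, DESeq2 called 3 of 8 genes in the anterior DKO comparison, Hes5, Sox21 and Sox3, all higher. With edgeR 1 of the 8 passed. This was Hes5, a Notch target of neural progenitors, which rose from 51.8 ± 4.0 CPM to 82.0 ± 12.0 CPM (log2 fold change 0.66, SE 0.0928, adjusted p = 0.0455). All 8 pan-neural genes had fitted values above 0, with a median of 0.19, and 5 had an unadjusted p below 0.05. Sox3 was at 0.34 (adjusted p = 0.0881), Sox21 at 0.38 (0.128) and Sox2 at 0.21 (0.289), all among those 5, while Sox1 at 0.17 (0.504) was not. Posteriorly none of the 8 passed edgeR, 3 had an unadjusted p below 0.05, DESeq2 called Hes5 and Sox2, and their median was 0.31.

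Relative to the Sox1, Sox2 and Sox3 sum, no member separated the genotypes in either region (0 of 9 higher, against 0.125% of all genes in the anterior and 0.126% in the posterior comparison). None was lower without overlap either, where 17.5% and 12.5% of all genes were. The anterior difference of DKO minus control on this log2 scale lay above 0 for 7 of the 9 genes, with a median of 0.14 against 0.38 for the level in CPM. Nkx2-2 was highest at 0.32, followed by Dbx1 at 0.17, Nkx6-2 at 0.16, and Olig2 and Nkx6-1 at 0.14 each. Pax6 at −0.02 and Irx3 at 0.05 were nearly level with the Sox sum, and Dbx2 was lowest at −0.12. Posteriorly 4 of the 9 lay above 0, with a median of −0.01, and Dbx1 was highest at 0.63. The size depended on the genes set beneath. Relative to Sox1 alone the anterior difference ran from −0.05 for Dbx2 to 0.39 for Nkx2-2. Dbx1 was at 0.24, Nkx6-2 at 0.23, Olig2 and Nkx6-1 at 0.20 each, Irx3 at 0.12, Nkx2-9 at 0.09 and Pax6 at 0.04. Posteriorly it ran from −0.19 for Nkx2-9 to 0.57 for Dbx1. The genotypes overlapped for every member on this scale too.

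**Figure D4:**
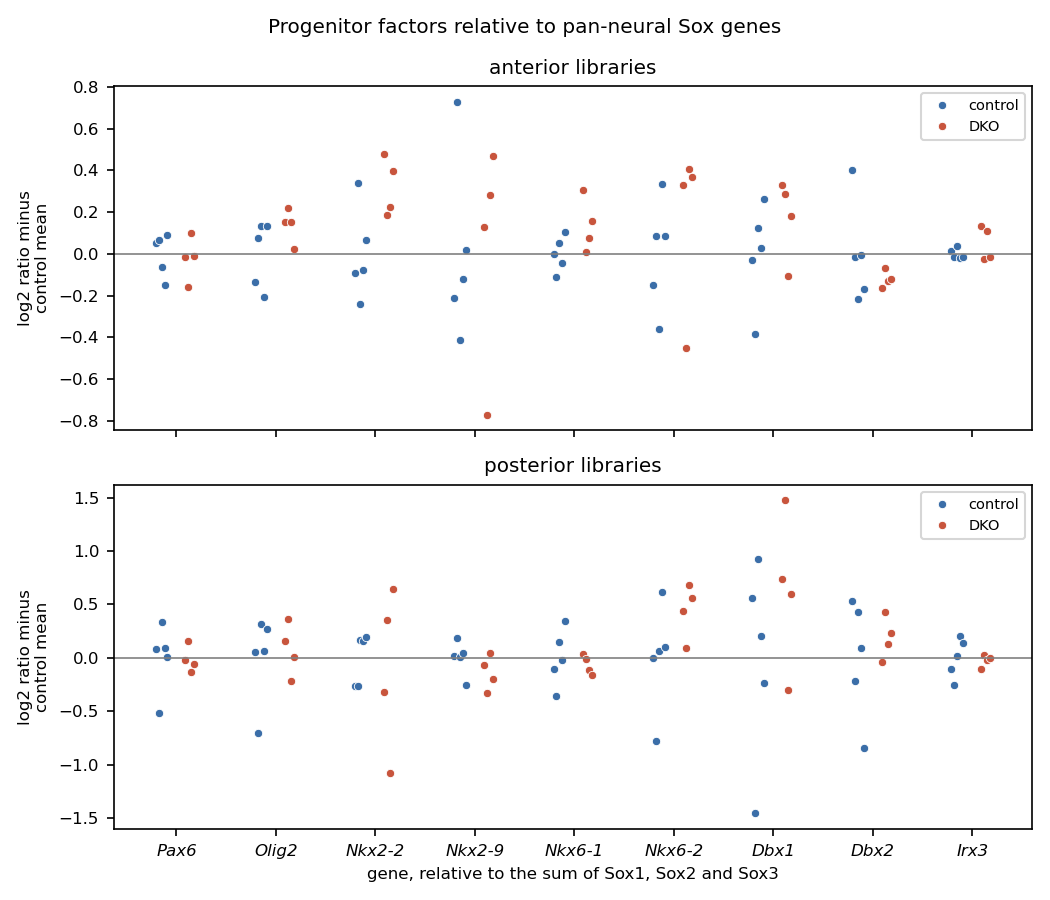
Log2 ratio of each gene to the summed CPM of Sox1, Sox2 and Sox3, with the mean of the controls of that region set to 0 (vertical axes, which differ between the panels), one point per library. Control and DKO points overlap for all 9 genes in both regions, and posterior Dbx1 has the widest spread.

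The lists of neighbouring domains gave the following counts. Of 9 further ventral and intermediate progenitor genes tested in the anterior piece, 0 passed edgeR, DESeq2 called 2 (Irx5 and Prdm8), 5 had an unadjusted p below 0.05, all higher, and the median was 0.32. The lowest p-values were those of Prdm8 (0.52), Irx5 (0.32), Irx4 (0.46) and Sp8 (0.32), progenitor factors of intermediate domains, with adjusted p-values from 0.171 to 0.216. In the posterior piece 1 of 8, Irx1 (0.43, adjusted p = 0.197), had an unadjusted p below 0.05 and was called by DESeq2, and the median was 0.31. Of 13 dorsal progenitor genes, 0 passed with either tool and 1, the roof plate and dorsal gene Msx1 (0.27, adjusted p = 0.330), had an unadjusted p below 0.05, and the median was 0.14. In the posterior piece 4 of 11 dorsal genes, Msx1, Msx3, Olig3 and Lmx1a, had an unadjusted p below 0.05 with values from 0.31 to 0.62, all higher, and 0 passed with either tool.

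The signals upstream of the 9 factors were described in the same way. In the hedgehog list 0 of 14 genes passed edgeR in the anterior piece, and DESeq2 called 1, Shh. The ligand gene Shh had a log2 fold change of 0.34 (29.5 ± 2.27 CPM in controls and 37.3 ± 3.52 CPM in DKO, adjusted p = 0.129), and Foxa2, a floor plate and notochord factor, one of 0.38 (adjusted p = 0.187). The netrin gene Ntn1 (−0.16) and the hedgehog co-receptor gene Cdon (−0.15) had unadjusted p-values below 0.05 on the lower side. In the posterior piece 0 of 13 passed with either tool, and 3 had an unadjusted p below 0.05. Foxa2 was on the higher side at 0.30 (adjusted p = 0.446), and the hedgehog effectors Gli2 and Gli3 on the lower side at −0.18 and −0.19 (adjusted p = 0.444 and 0.451).

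In the retinoic acid list 0 of 12 genes passed edgeR in either region, and 3 anterior and 2 posterior ones had an unadjusted p below 0.05. DESeq2 called 2 in the anterior piece, both lower. Aldh1a2, the enzyme of retinoic acid synthesis in somites, was at 135 ± 30.8 CPM in anterior controls and 68.9 ± 13 CPM in anterior DKO without overlap (log2 fold change −0.97, SE 0.170, adjusted p = 0.0641). Cyp26b1, a retinoic acid degrading enzyme, was at 13.6 ± 3.03 CPM and 6.71 ± 1.35 CPM (−1.03, adjusted p = 0.0659). The 9 progenitor factors had fitted values above 0 in the same libraries in which both enzyme genes had values below 0, and no relation between them was tested. Crabp1, a gene for a retinoic acid binding protein, was the third anterior gene below an unadjusted p of 0.05, on the higher side at 0.27 (adjusted p = 0.227). The 2 posterior genes below that p were on the higher side too, the degrading enzyme gene Cyp26a1 at 0.38 (adjusted p = 0.449) and the binding protein gene Crabp2 at 0.25 (adjusted p = 0.451). Posterior Aldh1a2 was at −0.27 (adjusted p = 0.502).

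Among 21 neuron identity genes tested in the anterior piece, 0 passed edgeR and 3 had an unadjusted p below 0.05, which are the 3 that DESeq2 called. Neurog2, the proneural gene of motor neuron progenitors, was at 0.45 (36.2 ± 1.14 CPM and 49.3 ± 8.28 CPM, adjusted p = 0.103). Sim1 (−1.07, adjusted p = 0.0881) and Pax2 (−1.31, adjusted p = 0.123) lay below their controls without overlap, and both are also expressed in the mesoderm. In the posterior piece 0 of 21 passed edgeR, 7 had an unadjusted p below 0.05 on the lower side and 2 on the higher side. Sim1 (−1.34, adjusted p = 0.0978), Pax2 (−1.14, 0.126), Lhx1 (−1.32, 0.259) and Gata3 (−0.39, 0.344) lay below their controls there without overlap, and DESeq2 called the first 3 of these. Between the pieces of controls 7 genes of this list were higher posteriorly with edgeR and 11 lower. Pax2 was among the higher (11.4 against 2.20 CPM) and Tubb3 among the lower (16.5 against 95.3 CPM). In DKO Gata3 was higher posteriorly (8.99 against 2.43 CPM) and Elavl3 lower (4.92 against 35.4 CPM). Which tissue these transcripts came from was not tested.

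Marker lists of other tissues were counted in the same libraries, and no gene of them passed edgeR in either DKO comparison. DESeq2 called some of them, against 1.94% of all genes in the anterior and 1.01% in the posterior piece. In the anterior piece these were Myf5 on the higher side and Meox1 and Pax1 on the lower side. It also called Erbb3, Foxd3 and Sox10 of the neural crest and Wnt6 higher, and Snai2 and Wt1 lower. In the posterior piece it called Krt8 higher and Foxc2, Meox1 and Snai2 lower. The somite and sclerotome list summed to 330 to 392 CPM in anterior controls and 230 to 302 CPM in anterior DKO, and 5 of its 9 tested genes had an unadjusted p below 0.05 on the lower side, Pax1, Meox1 and Meox2 among them, where 6.61% of all genes did. On the higher side were 2 genes of the list, among them the muscle determination gene Myf5, which had its lowest p (0.80, adjusted p = 0.0522) and groups that did not overlap. In the posterior pieces it summed to 372 to 508 CPM and 191 to 372 CPM, with 4 of 9 genes lower at that p and none higher, where 5.74% of all genes were lower. The limb and intermediate mesoderm list had 4 of 7 genes on the lower side at that p in each region, and the pan-neural sum was 868 to 1015 CPM in anterior controls and 1012 to 1170 CPM in anterior DKO. The erythroid list, whose globins are abundant, summed to 961 to 4637 CPM in anterior controls and 1208 to 2021 CPM in anterior DKO, with no gene below an unadjusted p of 0.05. In the posterior pieces it summed to 1363 to 2207 CPM in controls and 1641 to 3388 CPM in DKO, where 5 of 7 genes had an unadjusted p below 0.05 on the higher side. The head and hindbrain list stayed within 10.5 to 23.8 CPM in all anterior libraries. Of the neural crest list 5 of 8 genes were on the higher side at an unadjusted p below 0.05 in the anterior piece and 1, Snai2 (−0.72, adjusted p = 0.0995), on the lower side. In the posterior piece none was higher and 2, Snai2 (−0.60, adjusted p = 0.276) and Ets1 (−0.32, 0.415), were lower at that p. Of all genes, 6.41% in the anterior and 5.27% in the posterior piece were on the higher side at that p. On that side surface ectoderm had 2 and 3 of 8 genes in the anterior and the posterior piece and gut endoderm 0 of 6 and 3 of 8. Endothelium had 0 and 0 of 8 and caudal progenitors 1 of 4 and 0 of 10. On the lower side these 4 lists had 1 gene in all, anterior Pecam1 of the endothelium. The gut gene Pdx1 had at most 3 counts in every posterior library. The part of tissue proportions in the differences of the 9 genes was not tested, and the ratio to the Sox sum is a description only.

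Some of the 9 genes vary together. Over the 18 libraries, which share 9 embryos and fall into 2 regions, the correlation of log2 CPM between 2 members ran from 0.50 (Olig2 and Nkx2-9) to 0.98 (Pax6 with Nkx6-2 and with Dbx1), and Nkx2-9 had the lowest values with most others. Among 11808 protein-coding genes, those most like Pax6 were Efnb3, Ncald and Pou3f2 (Pearson r = 0.99, 0.99 and 0.98), and those most like Dbx1 were Prmt8, Zic1 and Nell2 (0.99 each). Olig2 was most like Neurog2 (0.96), Spsb4 and Irx5, and Irx3 most like its neighbour in the same Irx cluster, Irx5 (0.97), then Sox1 and Sox2. The genes nearest to Nkx6-1 were Prdm13, Cp and D430041D05Rik, to Nkx6-2 Lrrc4b, Vit and Apba2, to Nkx2-2 Metrn, Rasl10b and Crabp2, and to Dbx2 Sema5b, Id3 and Vim. Nkx2-9 had no close companion, its nearest being Nr6a1 (0.88), Plxnc1 and Prtg. The step between the regions is part of every one of these values.

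Within a region the same embryos were low for many of the 9 genes. In the anterior pieces the embryo with the lowest level was the oldest of its genotype for most genes: control 3 (24 somites) for 7 of 9 and DKO 2 (24 somites) for 6 of 9. In the posterior pieces it was the youngest, control 2 (20 somites) for 6 of 9 and DKO 3 (20 somites) for 7 of 9. Posterior Dbx1 was at 1.33 CPM in the 20-somite control and 6.80 CPM in the 24-somite control, and at 3.25 and 13.1 CPM in the DKO embryos of those ages. Posterior Olig2 was at 12.9 and 25.5 CPM in these controls and 19.8 and 34.8 CPM in these DKO embryos. Anterior Nkx2-9 went the other way, with 12.4 CPM at 20 somites and 4.74 CPM at 24 somites in controls, and 10.5 and 4.89 CPM in DKO, but the highest DKO library, at 12.1 CPM, came from an embryo with 23 somites.

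The gap between the pieces of one embryo moved accordingly. For Dbx1 the posterior minus anterior log2 CPM was −4.31 in control 2 and −3.55 in DKO 3, both with 20 somites, and −2.29 in control 3 and −1.91 in DKO 2, both with 24. For Pax6 the gap was −2.12 and −1.84 at 20 somites and −0.92 and −1.0 at 24, and for Olig2 −1.50 and −1.17 against −0.33 and −0.38. For Nkx2-9 it was −1.09 and −0.86 at 20 somites and 0.09 and 0.11 at 24. The 20- and 24-somite embryos thus stood at the ends of the range for Pax6 in both genotypes, with 1 embryo of each age per genotype. Somite number, age of the piece and the place of the cut cannot be told apart here.

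The change of each factor with somite number was then fitted in edgeR beside genotype, a test added after seeing which embryos were lowest. In the anterior pieces 8 of the 9 factors had a negative slope, where 50.8% of all genes had a positive one, and 4 of them an unadjusted p below 0.05, against 5.93% of all genes on that side. These were Nkx2-9 (−0.24 log2 units per somite, SE 0.0728, adjusted p = 0.211), Nkx6-2 (−0.18, SE 0.0608, adjusted p = 0.258), Pax6 (−0.07, SE 0.0202, adjusted p = 0.215) and Irx3 (−0.05, SE 0.0194, adjusted p = 0.284). Anterior Dbx1 was the 1 factor of the 9 with a positive slope, 0.06 (SE 0.0406, adjusted p = 0.600), which was 0.02 without control embryo 2.

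The posterior slopes were positive for 8 of the 9, as for 51.3% of all genes, and 3 of them had an unadjusted p below 0.05, against 3.96% of all genes on that side. Dbx1 had the steepest, 0.43 log2 units per somite (SE 0.0879, adjusted p = 0.193), which is 1.35 times per somite, followed by Olig2 at 0.20 (SE 0.0506, adjusted p = 0.290) and Pax6 at 0.14 (SE 0.0354, adjusted p = 0.281). Nkx2-9 had the 1 negative slope, −0.04 (SE 0.0392). None of the 9 passed the adjusted threshold in either region, where 5 anterior genes (0.0328%) and 2 posterior genes (0.0126%) did, and DESeq2 was not run for the slopes. Posterior Dbx1 passed when control embryo 4 was left out, with 0.52 (adjusted p = 0.0454). In each region 2 libraries, 1 of each genotype, stand at either end of the age range.

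Slopes of marker genes of other tissues were counted at an unadjusted p, since none of these genes passed the adjusted threshold. In the posterior pieces 8 of 10 caudal progenitor genes had a negative slope with an unadjusted p below 0.05, against 2.46% of all genes, and none of the 10 a positive slope. Positive slopes at that p were found for 7 of 9 somite and sclerotome genes, 7 of 8 neural crest genes, 6 of 7 erythroid genes, 5 of 8 endothelial genes and 4 of 8 pan-neural genes, against the 3.96% above. Dorsal progenitor genes had 6 positive and 2 negative slopes of 11 at that p, and neuron identity genes 10 and 2 of 21. No surface ectoderm or gut endoderm gene had a positive slope at that p, while 1 of 8 and 2 of 8 had a negative one. In the anterior pieces 11 of 21 neuron identity genes had a positive slope at that p, against 6.95% of all genes. So had 3 of 13 dorsal progenitor genes and 2 of 7 erythroid genes, and no gene of these 3 lists had a negative one. Negative anterior slopes at that p were found for 3 of 14 hedgehog, 2 of 4 caudal progenitor and 2 of 6 gut endoderm genes. None of those lists had a positive one, and 5.93% of all genes were on the negative side. The part of these tissues in the slopes of the 9 factors was not tested.

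**Figure D5:**
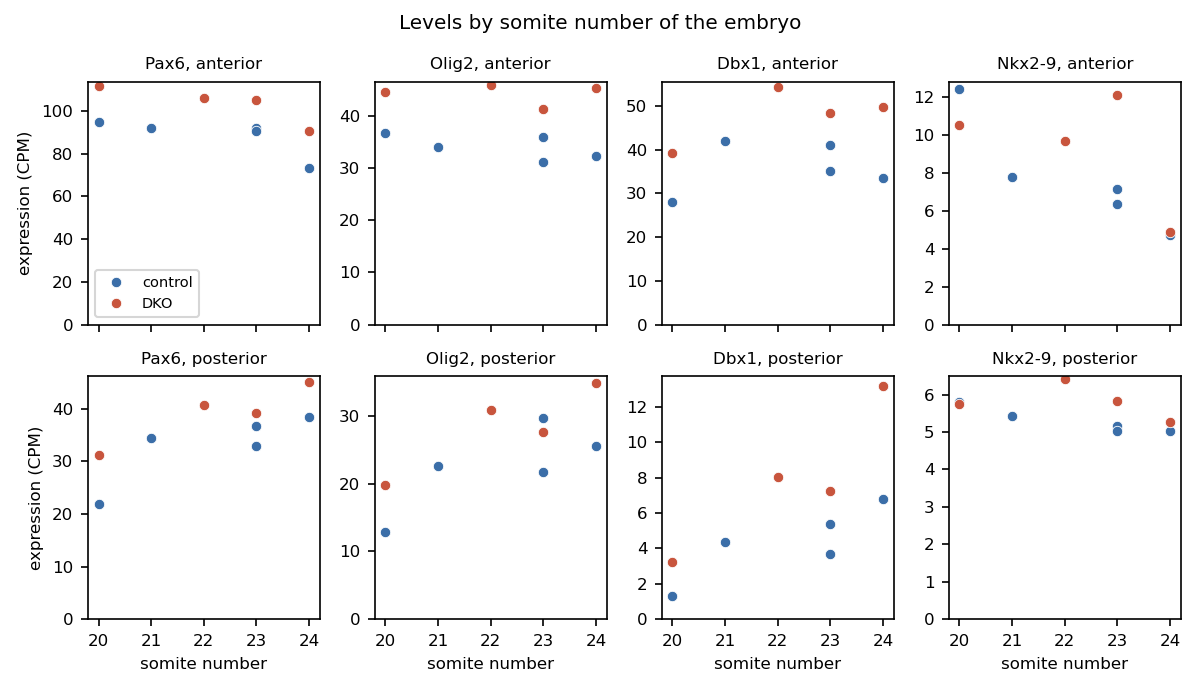
Expression in CPM (vertical axes from 0) against the somite number of the embryo for Pax6, Olig2, Dbx1 and Nkx2-9, anterior pieces above and posterior pieces below, one point per library. Posterior Dbx1 is lowest in the 20-somite and highest in the 24-somite embryo of each genotype, and anterior Nkx2-9 is lowest in the 24-somite embryos at 4.74 and 4.89 CPM.

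Some counts may hold reads of a gene on the other strand, since the use of strand in counting is not given in the sources used here. The antisense gene Irx3os overlaps 124 bases (4.5%) of the Irx3 exons and averaged 1.17 to 3.41 CPM in the 4 groups. Inpp5a, a ubiquitous phosphatase gene at 34.8 to 43.2 CPM, overlaps 246 bases (12.9%) of the Nkx6-2 exons, so the posterior Nkx6-2 values near 1 CPM could hold such reads. Nkx2-2os overlaps 278 bases (9.7%) of the Nkx2-2 exons and was at or below 0.170 CPM in every library. Pax6os1 and 6430503K07Rik overlap Pax6 and Nkx2-2 without sharing exon bases.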

How the data were processed

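Messenger RNA of 18 libraries (polyA RNA, NEBNext kit, single reads of 61 bp on an Illumina HiSeq instrument, per the labels' protocols) was analysed from the gene table of RSEM expected counts that the authors deposited, on GRCm38 with Ensembl release 91 and not scaled between libraries. CASAVA, cutadapt and RSEM are named without roles in the submitters' processing notes, and the aligner and the use of read strand are not given in the sources used here. Symbols, exons and coordinates came from GENCODE M21 (53360 of 53465 identifiers matched).

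Counts were rounded and fitted in R 4.3.3 with edgeR 4.0.16: filterByExpr (minimum count 10, total 15), trimmed mean of M values (TMM) scaling, glmQLFit and glmQLFTest, with Benjamini-Hochberg adjustment over all genes tested and a threshold of 0.05. CPM is TMM-scaled over the 18 libraries, with a prior count of 2 on the log2 scale. The SE is the absolute log2 fold change over the root of the F statistic. DKO was compared with control in the 9 libraries of each region, the regions within the 10 control and the 8 DKO libraries, and the genotype effects by an interaction over 18 libraries. Alternatives were DESeq2 1.42.0, relative log expression scaling, other filters, unrounded counts, somite number as a covariate, 1 fit of all libraries, the embryo as a block and leaving out each embryo. The fits were tested on simulated data with 200 changed genes. Genes changed by 0.5 on the log2 scale were recovered in 68% of cases in the anterior design (15029 genes) and 47% in the posterior design (15664 genes). Each of these designs gave 9 false calls. The changed genes were drawn among those with a mean of at least 50 counts, which posterior Nkx2-2, Nkx6-2 and Dbx2 did not reach. Changes smaller than 0.5 were not simulated, and most of the 9 genes had smaller fitted differences between genotypes.

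The labels of genotype, somite number and sex identified the 2 libraries of each embryo. Control embryos 1 and 5 both have 23 somites and are told apart by the sex label alone, which the counts of embryo 1 go against. Once group means were taken out, the 2 libraries of an embryo correlated at 0.256 to 0.570 over 16428 genes in 9 pairs, and those of different embryos of one genotype at −0.283 to 0.0916, so the numbers pair the samples. For control embryos 1 and 5 the correlations were 0.482 and 0.256, and those of their anterior libraries with the posterior ones of the other controls at most −0.0112 and 0.0785. P-values of the DKO comparisons within a region measure the spread between these embryos, whose litters are not stated. The main fits between regions and of the interaction ignored the pairing and took the 2 libraries of an embryo as independent. Only the alternative with the embryo as a block used it.

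The 9 genes, the 15 lists set beside them and the tests were chosen with earlier results of these data known. Named genes are the 9, up to 4 of the lowest p per list, the 3 protein-coding genes most correlated with each of the 9 (mean of at least 50 counts), Meis1, Meis2 and genes overlapping on the other strand. Of 8 erythroid genes 7 were found in the table. The change per somite and the ratio to Sox1 alone were added after seeing the data.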

Additional observations from a re-analysis of the deposited data

Results flagged for a closer look

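Among the 36 sets of one gene in one group, 2 had a library whose gap to its nearest neighbour was large for the range of its group by Dixon's criterion at 95%. Chance alone marks about 1 in 20 such sets. Anterior Pax6 was at 73.12 CPM in control embryo 3, below the other 4 controls, with a gap of 0.795 of the group's range. Anterior Nkx6-2 was at 8.074 CPM in DKO embryo 2, below the other 3 DKO embryos, with a gap of 0.943 of the range. Both embryos have 24 somites, the highest number in their genotype. Without DKO embryo 2 the anterior log2 fold change of Nkx6-2 was 0.58, and with all embryos 0.41.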

How the results depend on the processing

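In the anterior DKO comparison edgeR called 6 genes, DESeq2 296, edgeR with no filter 83, with somite number as a covariate 84 and with all 18 libraries in one fit 19. Leaving out 1 embryo gave 1 (without DKO 1) to 57 (without DKO 2). Of the 9 factors none was called by edgeR, 4 by DESeq2, 2 with no filter and 1 with the covariate. In the posterior comparison edgeR called 2 genes, DESeq2 161, no filter 14, a mean of at least 50 counts 1, the covariate 7 and one fit 51, and leaving out 1 embryo gave 2 to 24 (24 without DKO 2). For the interaction DESeq2 called 10 genes and leaving out 1 embryo gave 0 to 1. Posterior against anterior in DKO had 2913 calls and 1728 to 2550 with 1 embryo fewer. With the embryo as a replicate block 9 of the 9 factors passed in controls and 8 in DKO, where 5136 and 3004 of all genes did (3884 and 2913 without it), and the block changed no other call of the 9 than that of Nkx2-9 in controls.

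The 9 anterior and posterior DKO differences stayed above 0 in every alternative except anterior Dbx2, which ran from −0.0019 to 0.20 when 1 embryo was left out. Signs of the interaction turned when 1 embryo was left out for Pax6 (−0.113 to 0.158), Olig2 (−0.218 to 0.0940), Nkx2-2 (−0.430 to 0.0137), Nkx2-9 (−0.351 to 0.0238) and Irx3 (−0.130 to 0.0446). The cause was not tested. The changes per somite gave 0 to 134 anterior and 0 to 29 posterior calls among all genes, and 0 to 1 among the 9. Their sign turned for anterior Dbx2 (−0.0645 to 0.0127) and posterior Nkx6-2 (−0.115 to 0.0736). Low counts limit posterior Nkx2-2, Nkx6-2 and Dbx2.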

Other observations

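Posterior Meis1 had a slope on somite number in the same direction as most of the 9 factors, 0.15 log2 units per somite (SE 0.0310, adjusted p = 0.193), and posterior Sox1 one of 0.07 (SE 0.0263, adjusted p = 0.619), while posterior Sox3 was at 0.01 (SE 0.0412). Anterior Sox1 was at −0.09 log2 units per somite (SE 0.0225, adjusted p = 0.165) and anterior Sox3 at −0.01 (SE 0.0242).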
